A study of Mus musculus with 6 samples.

Results

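A set of 10 genes of extracellular nucleotide signalling was followed here through bone marrow monocytes (BMDM) and brainstem microglia (BSM) of the mouse: the P2Y receptors P2ry12, P2ry13, P2ry6 and P2ry14, the related receptor Gpr34, the P2X receptors P2rx4, P2rx7 and P2rx1, the ectonucleotidase Entpd1 and the adenosine receptor Adora3. They were chosen by name, as 10 of the 35237 genes of an expression table, with earlier results of these data known. RNA-Seq had been performed on 3 libraries of each cell type, with the aim of telling these myeloid cells apart by their RNA. Both cell types came from untreated C57BL/6 mice 6 weeks of age and were isolated by FACS, BMDM as CD11b+ CD45high CD115+ Ly6G- cells of the bone marrow and BSM as CD11b+ CD45low CD115low Ly6G- cells of the brainstem. Each library was made from the pooled cells of a set of mice. The labels, and likewise the sample list of the study, give replicate 1 of both cell types as male and replicates 2 and 3 as female, so each group holds 1 male and 2 female libraries, whereas the study's account of its results speaks of male mice.

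ATP and other nucleotides leave stressed or active cells and are read at the surface of nearby cells. P2Y receptors are G-protein-coupled receptors, most of which respond to ADP, UDP or UDP-sugars, whereas P2X receptors are cation channels that ATP opens directly. Entpd1 (CD39) removes phosphates from ATP and ADP to leave AMP, which other enzymes convert to adenosine, the ligand of the Adora receptors. In the brain, P2ry12 directs microglial processes towards sites that release ATP and ADP, and is widely used to tell microglia from other myeloid cells.

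Expression was read as FPKM, fragments scaled for the length of the transcript and for the number of mapped reads, which allows levels of different genes to be set side by side within a library. A second table of the same libraries, made with ALEXA-Seq, gives each gene a linear value whose unit the sources used here do not name, and it is not independent evidence. The study lists the mapped reads of each library, but neither table holds reads per gene, so the number of reads behind a single value is unknown. The sum of FPKM over all genes ranged from 163198.7 to 194184.2 in BMDM and from 68287.8 to 75021.4 in BSM, so the scaling of the libraries matters. Over the 6364 genes tested, the median log2 fold change came to -0.81 (BSM minus BMDM) for FPKM as deposited, -0.14 after upper quartile scaling, -0.015 after quantile normalization and 0.22 when every library was given the same sum. The 6 microglia markers summed to between 17.1 and 19.3 FPKM in BMDM and to between 523.9 and 681.1 in BSM, and the 5 marrow monocyte markers to between 364.1 and 383.1 in BMDM and to at most 0.946 in BSM. A pair of libraries stood apart from their groups. In BSM replicate 1, 472 of the 6364 genes are listed at 0, against 51 to 115 in the other libraries. The study's sample list gives this library an RNA integrity number far below those of all the other libraries. It also gives it the lowest RNA concentration of the 6, and the part of both in the results was not tested. In BMDM replicate 2, the neutrophil markers summed to 104.2 FPKM, against 17.6 and 19.2 in the other BMDM libraries, and the lymphocyte markers to 8.50, against 0.501 and 1.29. Markers of other cells were low, with endothelial, neuron and perivascular macrophage lists summing to at most 4.17 FPKM in any library, oligodendrocyte markers to at most 2.11 in BSM and 12.8 in BMDM, and astrocyte markers to at most 9.52 in BSM, nearly all of it Slc1a3, with Gfap at 0 throughout. A value of 0 need not mean that a transcript was absent, since Itgam, the gene of CD11b on which the cells were sorted, is listed at 0 FPKM in BSM replicate 2 and at 176.5 and 100.5 in the other BSM libraries.

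The receptors P2ry12, P2ry13 and Gpr34 and the enzyme Entpd1 were higher in BSM by factors of 16.0 to 922 in mean FPKM, with BSM libraries far above every BMDM library. Smaller differences in the same direction were measured for P2ry6, Adora3 and P2rx7. Of the 10 genes, 8 reached 3 FPKM in at least 1 library and were tested, and 7 of these passed an adjusted p-value of 0.05 (limma on log2(FPKM + 1), Benjamini-Hochberg adjustment over the 6364 genes), all of them higher in BSM. Among all genes tested, 54.5% passed the threshold, 9.22% as higher in BSM and 45.3% as higher in BMDM. In each of the 7 genes every BSM library was above every BMDM library, which was so for 11.6% of all genes tested, and the reverse order was seen for 55.2%. Without BMDM replicate 2 and BSM replicate 1, a choice made after seeing the data, the same 7 genes passed. More of all genes passed there too, with 776 of 5538 tested higher in BSM and 3258 higher in BMDM. P2rx4 did not pass the threshold, and P2rx1 and P2ry14 stayed under 3 FPKM in all 6 libraries and were not tested. The median log2 fold change of the 8 genes tested was 2.56, against -0.81 for all genes tested. P2ry12, P2ry13, P2ry6, Gpr34 and Adora3 reached 3 FPKM only in BSM libraries, so the minimum let them in by their BSM values. The count and the median both carry this choice. With no minimum, 5 of the 10 genes passed, all of them higher in BSM. Of the 21167 genes then tested, 712 passed as higher in BSM and 3164 as higher in BMDM.

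**Figure D1:**
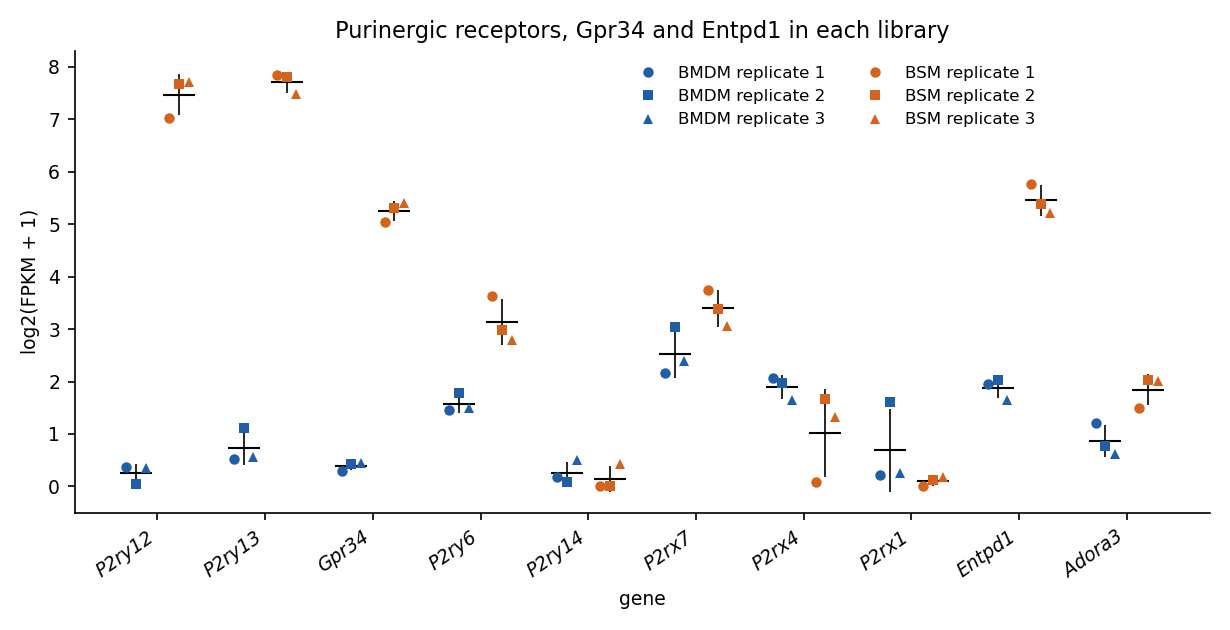
Expression of the 10 genes in each library on the log2(FPKM + 1) scale, with BMDM in blue, BSM in orange, a symbol for each replicate, a horizontal bar for the group mean and a vertical line for the SD (n = 3). P2ry12, P2ry13, Gpr34 and Entpd1 show wide gaps between the groups, P2rx7 in BMDM replicate 2 (7.26 FPKM) lies just under the lowest BSM library (7.30 FPKM), and for P2ry14 and P2rx4 the groups overlap.

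P2ry12, the Gi-coupled ADP receptor that is also the platelet target of clopidogrel, had FPKM values of 0.287, 0.0311 and 0.268 in BMDM replicates 1 to 3 and of 129.6, 203 and 209 in the corresponding BSM replicates. No BMDM library came near the BSM range, and among the BSM libraries replicate 1 was the lowest. Its mean was 0.196 ± 0.143 FPKM in BMDM and 180.4 ± 44.1 in BSM (SD, n = 3 each), a ratio of 922, which ranged from 649 to 1205 as each library was left out. The log2 fold change of log2(FPKM + 1) was 7.22 ± 0.27 (SE), with an adjusted p-value of 2.6e-06 in the limma fit. It was the second largest towards BSM of the 6364 genes tested. In mean FPKM, P2ry12 ranked 36th of all genes in the BSM libraries and 11238th in the BMDM libraries. Platelets carry P2ry12 too, and the 6 platelet and megakaryocyte markers summed to at most 0.329 FPKM in BSM, with Gp1bb and Gp6 at 0 in all libraries. The part of such cells in the value of P2ry12 was not tested.

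P2ry13, a second Gi-coupled ADP receptor, was by FPKM the more abundant of the pair in BSM replicates 1 and 2. In replicate 3 it was the less abundant. Its FPKM was 0.434, 1.16 and 0.480 in the BMDM libraries and 227, 222 and 177 in the BSM libraries. The highest BMDM value, in replicate 2, was still far below the lowest BSM value. The means were 0.692 ± 0.407 FPKM in BMDM and 209 ± 28.0 in BSM (SD, n = 3 each), a ratio of 302 that became 457 without BMDM replicate 2. The log2 fold change was 6.97 ± 0.26 (SE) with an adjusted p-value of 2.6e-06 (limma), the third largest towards BSM. Within a library, the FPKM of P2ry13 divided by that of P2ry12 was 1.75, 1.10 and 0.844 in the BSM libraries. By FPKM, then, neither receptor led in all of them. The ratio was 1.51, 37.4 and 1.79 in the BMDM libraries, where both were low. By ALEXA-Seq, P2ry13 was above P2ry12 in each BSM library (4072, 3860 and 3100 against 1865, 2648 and 2726).

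P2ry12 and P2ry13 lie side by side in a cluster of related receptor genes on chromosome 3. In mm9, the build named in the submitters' processing notes, the P2ry13 locus spans chr3:59011818-59014804 and the P2ry12 locus chr3:59020196-59066747, and both lie within the much longer locus of Med12l, chr3:58810645-59118668. The receptor genes P2ry14 and Gpr171, in the same cluster, did not share the levels of the pair. P2ry14 at chr3:58918548-58934546 stayed at or under 0.412 FPKM, and Gpr171 at chr3:58900907-58905740 had 0.436, 0.832 and 1.34 FPKM in BMDM and is listed at 0 in each BSM library. Med12l, a gene of the Mediator complex family, had 0.0476, 0.00885 and 0.0494 FPKM in BMDM and 1.56, 2.36 and 1.77 in BSM. All BSM values of Med12l were above all BMDM values, but by FPKM they stayed under the minimum and were not tested. By ALEXA-Seq Med12l was tested, with 1.07, 0.354 and 0.809 in BMDM and 39.2, 44.0 and 43.5 in BSM. The ALEXA-Seq log2 fold change was 4.65 (adjusted p-value 0.00034, limma). In the GENCODE M21 annotation Med12l lies on the opposite strand to P2ry12 and shares 9 exon bases with it, and since the library method is not stated to keep the strand, reads of Med12l and of its antisense neighbours could not be told apart where they overlap.

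**Figure D2:**
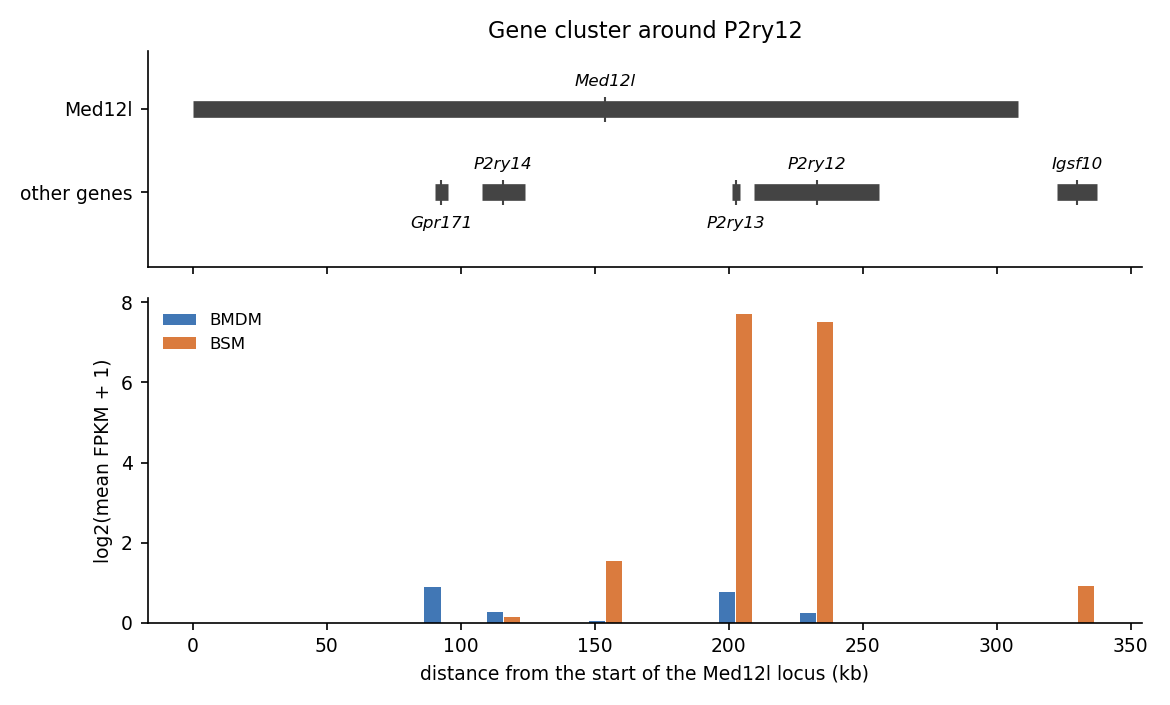
Map of loci around P2ry12, drawn to scale as distance in kb from the start of the Med12l locus (top), and the log2 of mean FPKM + 1 of each gene at the middle of its locus (bottom, BMDM in blue and BSM in orange, means of 3 libraries). P2ry13 and P2ry12 stand out in BSM (means of 209 and 180.4 FPKM), whereas P2ry14 and Gpr171 in the same cluster are low in BSM.

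Because the pair differed most between the cell types among the 10 genes, the 250 bases before the annotated start of each are shown (RefSeq, GRCm38.p6, minus strand, written 5′ to 3′ in the direction of transcription). The capitals mark AGGAAG, a purine-rich run of the kind that Ets-family factors such as PU.1 bind, searched on both strands (CTTCCT on the other).
P2ry12, chr3:59262986-59263235: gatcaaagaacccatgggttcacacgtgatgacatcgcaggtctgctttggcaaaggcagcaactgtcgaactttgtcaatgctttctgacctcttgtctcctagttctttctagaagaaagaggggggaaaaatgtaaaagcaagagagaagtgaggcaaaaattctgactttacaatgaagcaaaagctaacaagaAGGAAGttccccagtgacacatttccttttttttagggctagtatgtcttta
P2ry13, chr3:59210883-59211132: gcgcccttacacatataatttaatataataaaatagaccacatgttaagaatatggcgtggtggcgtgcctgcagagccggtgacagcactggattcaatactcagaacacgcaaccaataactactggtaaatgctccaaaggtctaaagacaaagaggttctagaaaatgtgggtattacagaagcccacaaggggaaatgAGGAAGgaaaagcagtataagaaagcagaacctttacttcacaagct
Each window held the run once, its first base 52 bases before the start for P2ry12 and 47 before it for P2ry13. The run was present in 9686 of 32851 windows of this length (29.5%). Entries were found for 8 of the 10 genes, with P2ry6 and Gpr34 unmatched, and 6 of the 8 had the run in at least 1 window (P2ry12, P2ry13, P2ry14, Adora3, P2rx7 and Entpd1), in 6 of 13 windows in all. P2rx7 and Entpd1 had it in only 1 of their 2 windows and P2ry14 in 1 of 4. Genes with several windows have more chances of a match. No share per gene over all genes was computed, so the count of 6 of 8 genes has no background beside it. These are matches of letters and say nothing of binding.

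Gpr34, a receptor for lysophosphatidylserine that belongs to the same branch of receptors as P2ry12, measured 0.234, 0.343 and 0.355 FPKM in BMDM and 32.0, 38.5 and 41.3 in BSM. Both groups were tight, with coefficients of variation of 21.4% and 12.9%, and they did not overlap. The ratio of means was 120 (0.310 ± 0.0665 against 37.3 ± 4.80 FPKM, SD, n = 3 each) and the log2 fold change 4.86 ± 0.22 (SE, adjusted p-value 3.9e-06, limma). Gpr34 stood at 0.247, 0.190 and 0.198 of the FPKM of P2ry12 in the 3 BSM libraries. Of the 3 other listed genes of lysophosphatidylserine handling that were in the table, Abhd12, a lipase that degrades this lipid, was also higher in BSM (1.31, 3.79 and 2.75 FPKM in BMDM against 10.6, 15.8 and 12.9 in BSM, log2 fold change 2.01, adjusted p-value 0.0015 in limma). Gpr174 and Pla1a stayed at or under 0.134 FPKM.

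P2ry6, a Gq-coupled receptor for UDP that promotes phagocytosis by microglia, was expressed in both cell types. It measured 1.76, 2.44 and 1.81 FPKM in BMDM and 11.3, 6.92 and 5.91 in BSM. BSM replicate 1 was the highest and the groups did not overlap. The means of 2.01 ± 0.379 and 8.05 ± 2.88 FPKM (SD, n = 3 each) gave a ratio of 4.01 and a log2 fold change of 1.55 ± 0.28 (SE, adjusted p-value 0.0029, limma). It did not pass a test against a change of 2-fold (adjusted p-value 0.17, limma). P2ry14, which responds to UDP-glucose, had 0.140, 0.0664 and 0.412 FPKM in BMDM, is listed at 0 in BSM replicates 1 and 2, and had 0.341 in BSM replicate 3. The values of P2ry14 overlapped between the groups, and P2ry14 was not tested. By ALEXA-Seq it had 0.799, 0.897 and 1.77 in BMDM, 0 in BSM replicates 1 and 2 and 0.331 in BSM replicate 3, which did not overlap.

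The fixed list of other P2Y receptors held P2ry1, P2ry2, P2ry4 and P2ry10, and only P2ry1 reached the minimum. P2ry1 is a Gq-coupled ADP receptor on chromosome 3, at chr3:60806717-60812901, and it went the other way from P2ry12 and P2ry13. It measured 6.10, 3.84 and 4.72 FPKM in BMDM, is listed at 0 in BSM replicate 1, and had 0.0138 and 0.0112 in the other BSM libraries. Every BMDM library was above every BSM library, and the log2 fold change was -2.53 ± 0.27 (SE, adjusted p-value 0.00024, limma). The platelet markers, whose cells also carry P2ry1, summed to 0.720 and 0.834 FPKM in BMDM replicates 1 and 2, while Ppbp alone had 6.50 in replicate 3. The part of such cells in the value of P2ry1 was not tested. Of the ADP receptors, then, P2ry1 was the one read above 3 FPKM in BMDM and P2ry12 and P2ry13 were those read above 3 FPKM in BSM.

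The ATP-gated channels showed no common direction. P2rx7, which opens at high ATP levels and precedes release of interleukin-1, was the most abundant of the 9 receptors in BMDM. Its FPKM was 3.47, 7.26 and 4.22 in BMDM and 12.4, 9.44 and 7.30 in BSM. The highest BMDM library (replicate 2) and the lowest BSM library (replicate 3) almost touched. With means of 4.99 ± 2.01 and 9.73 ± 2.58 FPKM (SD, n = 3 each), the ratio was 1.95 and the log2 fold change 0.86 ± 0.31 (SE), with an adjusted p-value of 0.048 (limma). This call was kept under 7 of 19 alternatives, and was lost, among others, in the 4 fits without BMDM replicate 1, BMDM replicate 3, BSM replicate 1 or BSM replicate 2, where the adjusted p-value ranged from 0.076 to 0.15 (limma). By ALEXA-Seq the values were 61.9, 126 and 68.0 in BMDM and 238, 168 and 119 in BSM, which overlapped, with a log2 fold change of 1.05 and an adjusted p-value of 0.058 (limma).

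P2rx4, a channel that is known for its part in microglial responses to nerve injury, did not pass the test in either direction. It measured 3.19, 2.94 and 2.13 FPKM in BMDM and 0.0567, 2.19 and 1.50 in BSM. The low value in BSM replicate 1, the library with most genes at 0, set most of the spread in BSM, whose coefficient of variation was 87.2%. BSM replicate 2 lay above BMDM replicate 3, so the groups overlapped. The log2 fold change was -0.87 with a 95% confidence interval from -1.87 to 0.12 (adjusted p-value 0.12, limma), and the ratio of means, 2.20 towards BMDM, was 1.49 without BSM replicate 1 and 3.54 without BSM replicate 2. After quantile normalization the log2 fold change was 0.024. ALEXA-Seq gave 24.3, 36.4 and 22.0 in BMDM and 2.52, 24.6 and 19.2 in BSM, with BSM replicate 1 again the lowest.

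P2rx1, a channel of platelets and neutrophils that desensitises quickly, stayed under the minimum in all libraries. Its FPKM was 0.162, 2.04 and 0.187 in BMDM, and it is listed at 0 in BSM replicate 1 with 0.0935 and 0.133 in replicates 2 and 3. The groups did not overlap, but BMDM replicate 2 alone was above 1 FPKM, and this is the library in which the neutrophil markers summed to 104.2 FPKM. The part of such cells in the value was not tested. With a minimum of 1 FPKM in place of 3 the log2 fold change was -0.59, with an adjusted p-value of 0.23 (limma). Of the other P2X receptors, P2rx2 and P2rx6 are listed at 0 in every library, P2rx5 did not exceed 0.0436 FPKM, and P2rx3 reached 1.07 FPKM in BSM replicate 2 and at most 0.122 elsewhere.

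**Figure D3:**
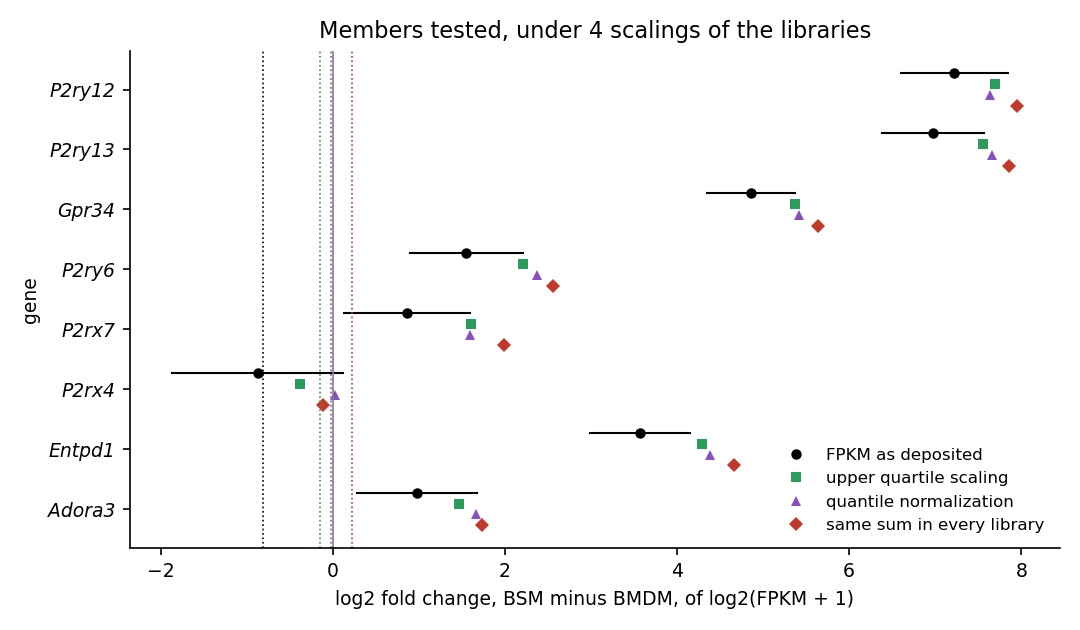
Log2 fold change (BSM minus BMDM, of log2(FPKM + 1)) of the 8 genes tested, with the 95% confidence interval for FPKM as deposited in black and the estimate under 3 other scalings in colour, where dotted lines mark the median of all genes tested under each scaling. Of the 8 genes, 7 stay above 0 under all 4 scalings, whereas P2rx4 lies at -0.87 as deposited and at 0.024 after quantile normalization.

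Entpd1, the CD39 enzyme that hydrolyses ATP and ADP outside the cell, measured 2.90, 3.06 and 2.15 FPKM in BMDM and 53.6, 40.6 and 36.0 in BSM. No BMDM library came near the lowest BSM library. Means of 2.70 ± 0.484 and 43.4 ± 9.15 FPKM (SD, n = 3 each) gave a ratio of 16.0, between 14.2 and 17.4 as each library was left out, and a log2 fold change of 3.57 ± 0.25 (SE, adjusted p-value 2.8e-05, limma). By ALEXA-Seq the log2 fold change of Entpd1 was 4.39 (adjusted p-value 6.6e-05, limma).

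Of 10 other enzymes that hydrolyse nucleotides outside the cell, 9 stayed under 3 FPKM in all libraries. Among them was Nt5e (CD73), which turns the AMP left by Entpd1 into adenosine and had at most 0.0561 FPKM. Entpd2 and Entpd8, close relatives of Entpd1 at the cell surface, are listed at 0 in every library and Entpd3 did not exceed 0.0242. Enpp2 (autotaxin) had 0, 0.0334 and 0.00453 FPKM in BMDM and 1.25, 4.69 and 0.413 in BSM. Its libraries did not overlap but varied widely within BSM. With FPKM as deposited, the log2 fold change of 1.37 did not pass (adjusted p-value 0.054, limma). Enpp2 passed after upper quartile scaling, quantile normalization and scaling to the same sum (adjusted p-values 0.049, 0.024 and 0.037, limma). It did not pass with no minimum or in female libraries only (adjusted p-values 0.14 and 0.11, limma). By ALEXA-Seq its log2 fold change was 4.50 (adjusted p-value 0.0067, limma). Of the intracellular members of the Entpd family, only Entpd7 reached 3 FPKM, with 9.14, 4.96 and 7.30 in BMDM and 61.5, 5.74 and 3.88 in BSM. The high value of Entpd7 came from BSM replicate 1 alone and the difference did not pass (log2 fold change 0.68, adjusted p-value 0.53, limma; -0.47 without that library).

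Adora3, a Gi-coupled receptor for adenosine, measured 1.31, 0.701 and 0.530 FPKM in BMDM and 1.82, 3.06 and 3.03 in BSM. The groups did not overlap, the means were 0.847 ± 0.411 and 2.64 ± 0.702 FPKM (SD, n = 3 each), and the log2 fold change was 0.98 ± 0.30 (SE, adjusted p-value 0.026, limma). The call was lost without BMDM replicate 2 or 3 and without BSM replicate 2 or 3, with adjusted p-values from 0.063 to 0.10 (limma). The FPKM of Adora3 was read over a locus of 2 genes. In the FPKM table the Adora3 locus spans chr3:105673825-105726954 (mm9), whereas ALEXA-Seq lists 2 entries under the symbol Adora3, and GENCODE M21 names the second of them, ENSMUSG00000074344, as Tmigd3, which shares 779 exon bases with Adora3 on the same strand.

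ALEXA-Seq listed the 2 genes as separate entries. The sources used here do not state how it divided reads of the shared exon bases. The entry ENSMUSG00000000562, which GENCODE M21 names Adora3, had ALEXA-Seq values of 3.42, 4.51 and 5.45 in BMDM and 38.8, 69.8 and 64.8 in BSM. These groups were widely apart, with a log2 fold change of 3.40 ± 0.42 (SE, adjusted p-value 0.00086, limma), which stayed past the threshold without each library in turn. The Tmigd3 entry had 26.0, 12.7 and 8.06 in BMDM and 0.376, 32.3 and 41.8 in BSM. Its groups overlapped because BSM replicate 1 was the lowest of all 6 libraries, and the log2 fold change was -0.26 (adjusted p-value 0.88, limma) with all libraries and 1.33 (adjusted p-value 0.048, limma) without BSM replicate 1. Mast cells also carry Adora3, and the 6 mast cell markers are all listed at 0 in BSM, 4 of them in every library. The part of such cells in the value of Adora3 was not tested.

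**Figure D4:**
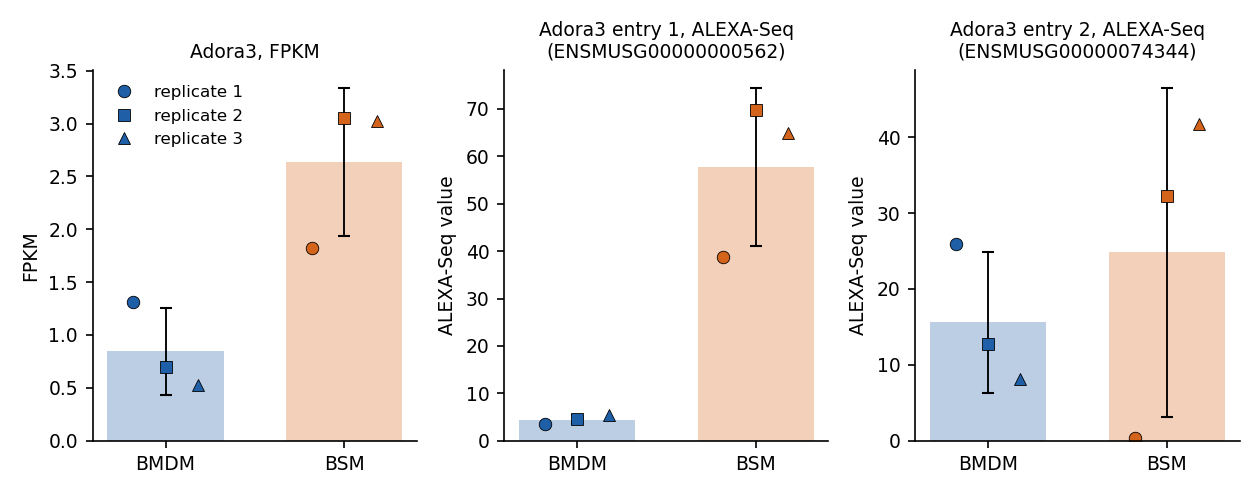
Adora3 in each library as FPKM (left) and as the ALEXA-Seq values of the 2 entries that carry its symbol (middle and right), with a bar for the mean, an error bar for the SD (n = 3) and a symbol for each replicate. The entry ENSMUSG00000000562 separates the cell types (at most 5.45 in BMDM and at least 38.8 in BSM), whereas in the entry ENSMUSG00000074344 BSM replicate 1 (0.376) lies under all BMDM libraries.

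None of the other adenosine receptors, Adora1, Adora2a and Adora2b, reached 3 FPKM. Adora2b, the receptor of low affinity, had 1.29, 1.87 and 1.63 FPKM in BMDM and is listed at 0 in each BSM library, and Adora1 and Adora2a did not exceed 0.134 FPKM. Of the 6 genes of adenosine uptake and conversion in the table, Slc29a3, a nucleoside transporter of lysosomes, was higher in BSM (14.1, 21.0 and 17.3 FPKM in BMDM against 58.4, 53.9 and 46.8 in BSM, log2 fold change 1.56, adjusted p-value 0.0012, limma). Slc28a2, a sodium-coupled nucleoside transporter, was higher in BMDM (2.15, 7.97 and 2.14 FPKM against at most 0.00732 in BSM, log2 fold change -2.15, adjusted p-value 0.0051, limma). The other 4 genes stayed under 3 FPKM.

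Of the 3 listed genes of Gi proteins, through which P2ry12 and P2ry13 signal, Gnai2 and Gnai3 were lower in BSM, the call of Gnai3 being lost under 1 scaling, and Gnai1 did not pass. Gnai2, the most abundant of them, had 29.5, 45.0 and 38.9 FPKM in BMDM and 10.8, 9.30 and 7.15 in BSM (log2 fold change -1.94, adjusted p-value 0.00069, limma). Gnai3 had 18.8, 23.8 and 24.2 FPKM in BMDM and 2.59, 6.84 and 6.38 in BSM (log2 fold change -1.96, adjusted p-value 0.0022, limma). When every library was given the same sum of FPKM, Gnai2 still passed and Gnai3 did not (adjusted p-values 0.048 and 0.11, limma). Akt1 also passed as higher in BMDM with FPKM as deposited (log2 fold change -1.10, adjusted p-value 0.015, limma), but not after upper quartile scaling, quantile normalization or scaling to the same sum (adjusted p-values 0.16, 0.44 and 0.56, limma). Pik3cg, a phosphoinositide 3-kinase that Gi-coupled receptors activate, had 9.68, 10.3 and 12.1 FPKM in BMDM and 6.55, 12.8 and 13.02 in BSM, and its groups overlapped. Its regulatory partner Pik3r5 (log2 fold change -0.63, adjusted p-value 0.073) did not pass in the limma fit either. Gnai1 is listed at 0 in each BMDM library and had 3.36, 0.0103 and 0.00434 FPKM in BSM (log2 fold change 0.71, adjusted p-value 0.34, limma).

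Across all 10 lists of such genes, 48 of 50 genes were in the table and 13 reached the minimum. Of these 13, 2 passed as higher in BSM and 5 as higher in BMDM, against 9.22% and 45.3% of all genes tested, and 6 did not pass, among them Lrrc8a, a subunit of volume-regulated channels, with a log2 fold change of 0.69. The split depended on the scaling, with 4 higher in BSM and 4 higher in BMDM after upper quartile scaling or quantile normalization, and 5 and 3 with the same sum in every library. The 7 genes called among the 10 studied were higher in BSM under each of these scalings, where 16.5%, 19.3% and 24.9% of all genes tested passed in that direction.

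Because FPKM is scaled for length, the receptors can be compared within a library, where the scaling between libraries cancels. The 9 receptors together summed to 11.0, 17.0 and 10.4 FPKM in BMDM and to 415, 485 and 445 in BSM. In BMDM, P2rx7 and P2rx4 made up 60.1% to 61.1% of that sum and P2ry6 another 14.4% to 17.4%, whereas P2ry12, P2ry13 and Gpr34 together held 8.69% to 10.6%. In BSM the latter 3 held 93.8% to 95.9%, and P2rx7 and P2rx4 held 1.98% to 3.01%. The mean share of P2ry12 was 1.79% in BMDM and 40.0% in BSM, and that of P2ry13 was 5.13% and 46.8%. The share of P2rx7 was lower in BSM although its FPKM was higher, at 31.6%, 42.7% and 40.6% in BMDM against 3.00%, 1.95% and 1.64% in BSM. Each of the 9 shares differed without overlap between the groups. An exact two-sided permutation test of 3 against 3 libraries gave 0.1 for each (0.1 after adjustment over the 9 shares). This is the smallest p-value the design allows, so these differences did not reach the 0.05 threshold. The shares of a library add up to a fixed whole, so higher shares of P2ry12, P2ry13 and Gpr34 lower the rest. The 9 shares are therefore not separate results. P2ry6 and Adora3 too had lower shares in BSM although their FPKM was higher. The make-up of BMDM depended on the measure. As shares of the summed ALEXA-Seq values, P2ry6 held 27.8% to 34.2% in BMDM, P2rx4 12.4% to 14.9% and P2rx7 38.0% to 42.8%. In BSM, P2ry13 (45.4% to 55.5%) and P2ry12 (25.4% to 39.9%) held the largest shares by ALEXA-Seq too.

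**Figure D5:**
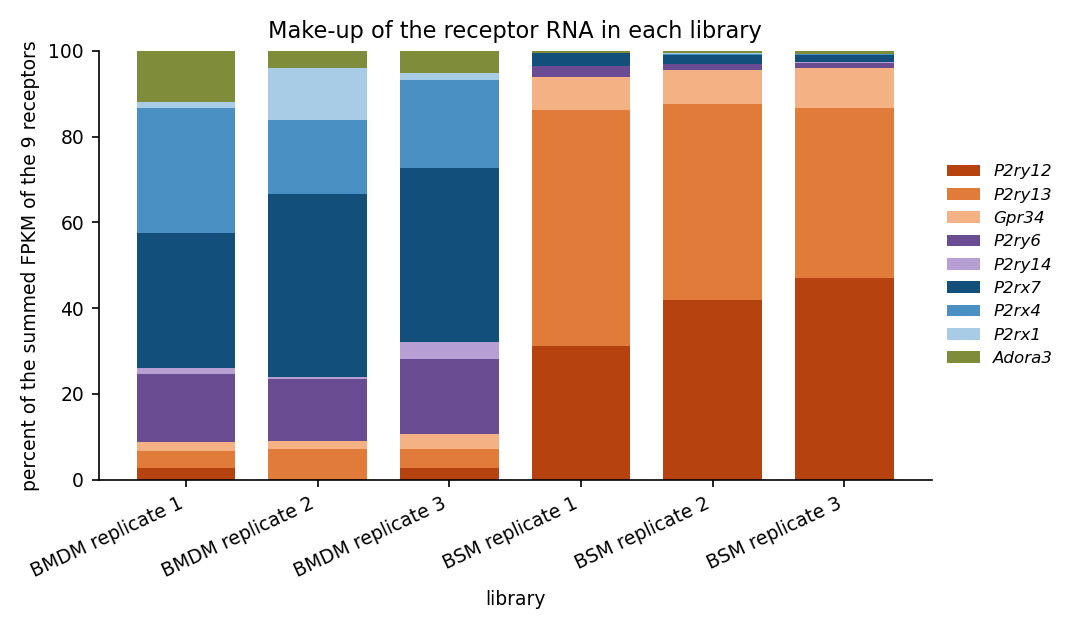
Share of each receptor in the summed FPKM of the 9 receptors in each library, stacked to 100%. P2X channels and P2ry6 fill most of the BMDM bars, and P2ry12, P2ry13 and Gpr34 fill 93.8% to 95.9% of the BSM bars.

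In order of mean FPKM, BMDM ran from P2rx7 (4.99) through P2rx4 (2.75), Entpd1 (2.70) and P2ry6 (2.01) to Adora3 (0.847) and lower genes. P2rx4 and Entpd1 did not differ beyond their SDs of 0.556 and 0.484, and the ranges of P2rx4 and P2ry6 overlapped as well. In BSM the order was P2ry13 (209), P2ry12 (180.4), Entpd1 (43.4), Gpr34 (37.3), P2rx7 (9.73), P2ry6 (8.05), Adora3 (2.64) and P2rx4 (1.25). The ranges of P2ry13 and P2ry12 overlapped there, as did those of Entpd1 and Gpr34, of P2rx7 and P2ry6, and of Adora3 and P2rx4. By FPKM, P2rx7 was above P2ry6 and Adora3 above P2rx4 within each BSM library. The order of P2ry13 and P2ry12 and that of Entpd1 and Gpr34 turned in replicate 3. By ALEXA-Seq, P2rx7 in BMDM and P2ry13 in BSM again had the highest means, but other ranks changed. P2ry6 was above P2rx7 in each BSM library (643, 265 and 204 against 238, 168 and 119). Gpr34 had a higher mean than Entpd1 in BSM (543 against 421). In BMDM the mean of P2ry6 (65.4) was above those of P2rx4 (27.6) and Entpd1 (18.9).

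By Euclidean distance of log2(FPKM + 1) over the 6 libraries, the 5 genes nearest to P2ry12 of the 6364 tested were Sparc (1.38), P2ry13 (1.39), F11r (1.40), Egr1 (1.56) and Pmp22 (1.71). P2ry13 was thus the second nearest. Gpr34 ranked 23rd, Entpd1 36th, P2ry6 263rd, P2rx7 327th, Adora3 1635th and P2rx4 4477th. The distance reflects level as well as the difference between the cell types.

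By ALEXA-Seq, P2ry12, P2ry13, Gpr34, Entpd1 and P2ry6 and the Adora3 entry ENSMUSG00000000562 passed as higher in BSM, 6 of the 8 entries tested, against 47.9% of all entries tested in either direction, 10.9% as higher in BSM and 37.1% as higher in BMDM. The log2 fold changes on the log2(value + 1) scale were 9.68 for P2ry12, 8.39 for P2ry13, 6.51 for Gpr34 and 2.32 for P2ry6 (adjusted p-value at most 0.0057, limma). P2rx4, P2rx1 and P2ry14 were not among the 6364 entries tested, which were taken by their highest value in any library. P2rx4 missed with a highest value of 36.4. In BMDM, P2ry12, P2ry13, Gpr34, Entpd1 and the Adora3 entry ENSMUSG00000000562 did not exceed 21.8. They were thus let in by their BSM values, and the count of 6 of 8 carries this choice. All 6 libraries were bulk samples, so fewer cells that carry a transcript and less RNA of it per cell could not be told apart for any of these genes, nor could the cell type be told apart from the tissue it was sorted from and the steps of its preparation.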

How the data were processed

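RNA-Seq of 3 BMDM and 3 BSM libraries was analysed, with groups, replicate numbers, age and sex taken from the sample labels. The Exon arrays were not analysed here. The members and the gene lists were chosen with earlier results of these data known.

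The submitters' processing notes name CASAVA 1.7.0, TopHat 1.3.1, Bowtie 0.12.7 and Cufflinks 1.0.3 and the build mm9. The authors deposited FPKM for 35237 genes, fragments scaled for transcript length and mapped reads. They also deposited ALEXA-Seq values for 36536 entries, an expression signal whose normalization is not given in the sources used here. The study lists mapped reads per library, but neither table holds reads per gene, so the reads behind a value are unknown and no counting error can be given. Starts in the FPKM table are counted from 0 and were written here from 1. Which genes share exons was taken from GENCODE M21, and no coordinates were moved between builds.

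FPKM were compared with limma 3.58.1 in R 4.3.3 (moderated variances that follow the mean). The scale was log2(FPKM + 1) and the test covered the 6364 genes of at least 3 FPKM in at least 1 library. Benjamini-Hochberg adjusted p-values were read at a threshold of 0.05. The minimum and the threshold were taken from the study, which applied its minimum to FPKM adjusted for ribosomal reads and combined several methods, whereas deposited FPKM and 1 test were used here. Fold changes on this scale understate the change of low genes. The 6364 ALEXA-Seq entries with the highest values went through the same test as log2(value + 1). The step was tested on simulated data. Ratios are of mean FPKM. P-values measure the spread between libraries, which the labels call biological replicates. Tables were handled in Python 3.11.15 with pandas 2.3.3 and numpy 2.4.6, and plots drawn with matplotlib 3.10.9.

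The genes named are the 10 members, the listed genes that passed or exceeded 3 FPKM, and the 5 genes nearest to P2ry12. Others are named to account for a list, for the locus or as cell markers, and were chosen after their values were seen. A gene of the lists is not reported here. Alternatives were a pseudocount of 0.1, a minimum of 1 FPKM or none, upper quartile scaling, quantile normalization, the same sum in every library, no trend, a block for the replicate number, library quality weights, sex as a covariate, female libraries only, a test against a 2-fold change, and leaving out each library in turn.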

Additional observations from a re-analysis of the deposited data

How the results depend on the processing

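P2ry12, P2ry13, Gpr34 and Entpd1 passed as higher in BSM under all 19 alternatives by FPKM. Of the members, 4 passed in the test against a change of 2-fold, all as higher in BSM. In that test 229 of 6364 genes passed as higher in BSM and 908 as higher in BMDM. As each library was left out, 5 to 6 members passed as higher in BSM. Among all genes tested, between 459 of 6244 and 674 of 6081 then passed in that direction. The deviations of same-numbered libraries from their group means had correlations of -0.0195, -0.00836 and 0.134. With 3 libraries in each group, these cannot tell whether the replicate numbers pair the libraries. With the replicate block, 5 members and 7 listed pathway genes passed by FPKM, and Adora3 and P2rx7 were lost (adjusted p-values 0.052 and 0.061, limma). Of all 6364 genes, 566 then passed as higher in BSM and 2905 as higher in BMDM. The ALEXA-Seq calls of members numbered 6 to 8 over the alternatives. The number was 8 with library quality weights, where 1344 of 6364 entries passed as higher in BSM. It was also 8 without BMDM replicate 2 and BSM replicate 1 together, where 975 of 5538 entries did. Pathway genes called numbered 16 with a minimum of 1 FPKM, 15 with none and 3 in the 2-fold test, since a lower minimum tests more genes and the 2-fold test asks for more change.

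The median log2 fold change of the members tested was 2.93 with a pseudocount of 0.1, 1.55 with a minimum of 1 FPKM, 1.27 with none, 3.25 after upper quartile scaling, 3.38 after quantile normalization, 3.61 with the same sum and between 2.36 and 3.61 as each library was left out. The minimum of 1 FPKM adds P2rx1 to the genes tested and no minimum adds P2ry14 too, and P2rx4 drops under the minimum of 3 FPKM without BMDM replicate 1.

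Signs turned only for genes that had not passed with all libraries as deposited. P2rx4 stood at 0.024 after quantile normalization. Entpd7 stood at -0.42 with quality weights, -0.30 in female libraries, -0.47 without BSM replicate 1 (up to 1.37 as the other libraries were left out) and -0.68 without BMDM replicate 2 and BSM replicate 1 together, a choice made after seeing the data. In the same order Pik3cg stood at 0.16, 0.19, 0.25 and 0.23, at 0.04 without BMDM replicate 3 (down to -0.19 without others), and at 0.74, 0.76 and 1.16 after upper quartile scaling, quantile normalization and scaling to the same sum, for which Pik3r5 stood at 0.067, 0.11 and 0.45. The ALEXA-Seq entry ENSMUSG00000074344 of Adora3 stood at 0.37, 1.50 and 0.82 under those 3 scalings, at 1.87 with quality weights, 1.76 in female libraries, 0.17 without BMDM replicate 1 (down to -0.96 without others), 1.33 without BSM replicate 1 and 1.27 without both libraries named above. Some turned values passed in limma: Entpd7 without both libraries (adjusted p-value 0.019), Pik3cg with the same sum (0.019), and the Adora3 entry with quality weights (0.00014), in female libraries (0.0077), without BSM replicate 1 (0.048) and without both libraries (0.028). The cause of these turns was not tested. With 3 libraries in each group, small differences such as that of P2rx7 are imprecise.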
